A study of Mus musculus with 16 samples.

Results

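Fetal livers that carried both the ERG transgene and the GATA1s allele were set against wild-type fetal livers of the same age. The comparison used the 4 arrays titled ERG/GATA1s and the 4 titled WT alone, 8 of the 16 arrays of the study, and covered 15742 genes tested among 19934 with 1 symbol. The series asked how ERG works with the long and short forms of GATA1, by listing the genes that go up or down with each. Livers of mouse embryos were taken at E12.5 and at E14.5, after genotyping, and made into suspensions of single cells from which total RNA was measured. ERG/GATA1s embryos carried the ERG transgene (ERG Tg in the titles) and the GATA1s knock-in allele, and WT embryos carried neither. The other groups, used for the shared spread and for a side-by-side reading, carried the transgene alone (ERG) or the knock-in allele alone (GATA1s). Each genotype had 1 array labelled female and 1 labelled male at each stage. The sources used here do not give the transgene's promoter or species, the strain of the mice, the number of copies of the X-linked allele in females or whether a sample was 1 liver or a pool. The p-values below therefore measure the spread between these samples, which may be technical in part. Sex markers put the E14.5 WT arrays in different sexes, and the E14.5 GATA1s arrays likewise, so differences of sex also enter that spread.

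Blood of the mouse embryo forms chiefly in the fetal liver, where most cells at these ages belong to the red cell lineage. GATA1 drives the last steps of both red cell and megakaryocyte development, switches off Gata2 as cells mature and restrains the growth of megakaryocyte precursors. GATA1s lacks the amino-terminal part of the protein, and megakaryocyte precursors that make only this form are known to overgrow in the fetal liver. ERG belongs to the ETS family of transcription factors, acts in blood stem cells and megakaryocytes, and binds many regulatory sites together with GATA2, RUNX1, FLI1 and their partners.

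Several facts of the arrays touch every result below. The deposited log2 signal ran from 1.96 to 13.32, and array medians ran from 4.79 to 4.94. The male-labelled E12.5 ERG/GATA1s array stood apart from its partner, with the lowest standard deviation of the 16 arrays (2.03) and the lowest correlation within a group (r = 0.985 over all probe sets, 0.987 to 0.997 elsewhere). Xist, the RNA of the inactive X chromosome, was 10.08 and 9.51 on the female- and male-labelled E12.5 ERG/GATA1s arrays, and 4.22 and 4.19 at E14.5. This marker put the E12.5 pair with females and the E14.5 pair with males, against the label on 1 array of each stage, so sex and stage cannot be told apart within this genotype. Of the other 12 arrays 1, the male-labelled E12.5 GATA1s array, opposed its label, and the male-labelled E12.5 WT array had Xist at 9.35 beside a Y-linked mean of 4.95. The male-labelled E14.5 ERG array, which enters through the shared spread and the side-by-side values, had Xist at 10.03 beside a Y-linked mean of 5.27. Over both stages 1193 of the 15742 tested genes were called, 3.32% higher and 4.26% lower. Chromosome X genes were called in 20 of 476 cases (4.2%, both directions together), a smaller share than over all genes, and for the difference between stages in 2. None of the 4 tested chromosome Y genes was called in either comparison. The tested sex markers, Xist among them, differed by -3.525 to 2.435 at E14.5, and none passed there. Pairs of mixed marker sex in other groups enter the shared spread. These counts therefore cannot show whether sex had a part. Counts of calls are also given without the 3 arrays that opposed their labels, termed sex-opposed, and levels under 3.74, the 30th percentile of all values, are called dim.

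Over both stages 523 genes rose in ERG/GATA1s (3.32% of those tested) and 670 fell (4.26%), by limma's moderated test at a Benjamini-Hochberg adjusted p under 0.05. Differences were taken within each stage and then averaged, 4 arrays against 4, and the median over all tested genes was -0.01. The spread was estimated from all 16 arrays. When the 8 arrays of the comparison were fitted alone with additive terms for stage and genotype, 128 genes passed, 76 higher and 52 lower, and 127 of them were among the 1193. Within each stage the ERG/GATA1s arrays all lay above the WT arrays for 804 genes (5.11%) and all below for 1060 (6.73%); of the called genes, 380 rises and 469 falls did so.

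The count of calls rested on single arrays. It was 705 without the male-labelled E12.5 ERG/GATA1s array and 3940 without its partner, 649 and 522 without the female- and male-labelled E14.5 ERG/GATA1s arrays, and 729 without the male-labelled E12.5 WT array. It was 762 with the female-labelled E12.5 WT array left out, and 112 when the 3 sex-opposed arrays of the study were left out together. The remaining single arrays moved it to between 867 and 1590. A core of 415 genes, 244 higher and 171 lower, was called without each of the 16 arrays in turn, and a gene of that core is said below to have held. Of these, 118 were also called in the additive fit of the 8 arrays.

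**Figure D1:**
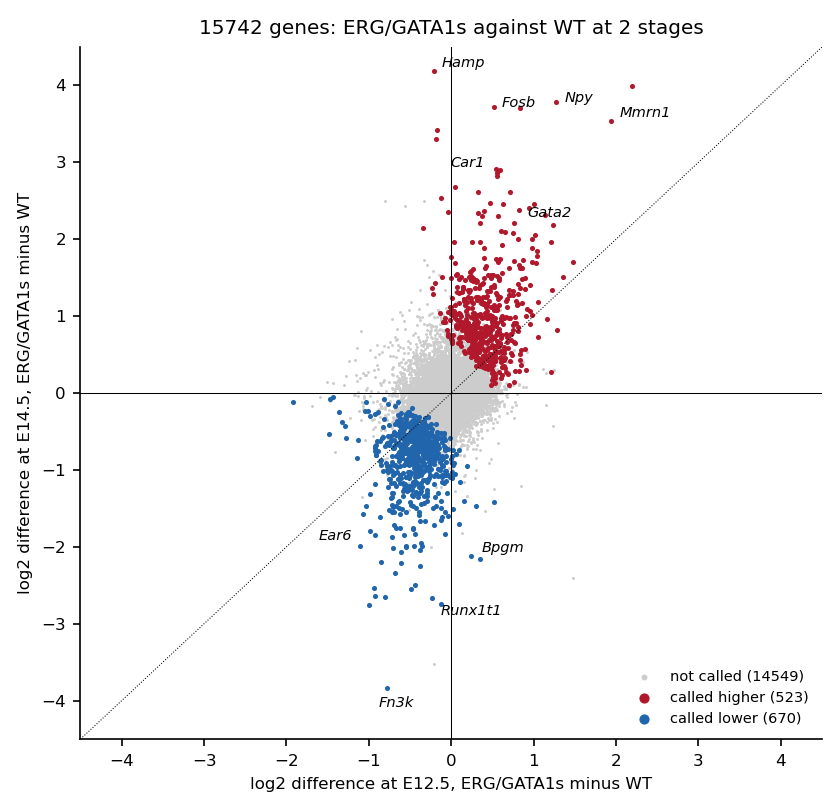
Each point is 1 of the 15742 tested genes, placed by its log2 difference, ERG/GATA1s minus WT, at E12.5 (horizontal axis) and at E14.5 (vertical axis), 2 arrays against 2 in each; the dotted line marks equal differences. Among the called genes, 448 of 523 rises and 558 of 670 falls were larger at E14.5 than at E12.5.

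The calls came mainly from E14.5. By markers the ERG/GATA1s arrays were female at E12.5 and male at E14.5. Stage, sex and any difference in copies of the X-linked allele therefore cannot be told apart. At that stage alone 588 genes rose (3.74%) and 523 fell (3.32%), and the total of 1111 became 627 without the female-labelled E14.5 WT array and 463 and 433 without the ERG/GATA1s arrays labelled female and male. At E12.5 no gene rose (0%) and 1 fell (0.00635%), although 2113 passed at an unadjusted p under 0.05, and 3442 passed the adjusted test without the female-labelled E12.5 ERG/GATA1s array. The count was 3 without the female-labelled E12.5 WT array, 21 without either E14.5 WT array, and 0 without any ERG or GATA1s array, the male-labelled E12.5 WT array or the male-labelled E12.5 ERG/GATA1s array. The gene that fell at E12.5 was Tmem267, named because it was alone: its level was 6.10 and 6.62 in WT and 5.10 and 4.89 in ERG/GATA1s. Over the called rises the median difference was 0.41 at E12.5 and 0.88 at E14.5, and over the called falls it was -0.43 and -0.75.

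Promoters are shown for the 3 largest rises and the 3 largest falls among the platelet, transcription factor, haem, red cell membrane and red cell regulator lists that matched an entry of RefSeq (GRCm38.p6), 250 bases before the most upstream start to 50 after it. They are read 5′ to 3′ on the gene's strand. Capitals mark exact matches to AGATAA or TGATAA, letters that GATA factors favour, or to AGGAAG or CGGAAG, letters that ETS factors favour, on either strand; no matches overlapped in these windows.
Mmrn1 (chr6:60944067-60944366, plus strand): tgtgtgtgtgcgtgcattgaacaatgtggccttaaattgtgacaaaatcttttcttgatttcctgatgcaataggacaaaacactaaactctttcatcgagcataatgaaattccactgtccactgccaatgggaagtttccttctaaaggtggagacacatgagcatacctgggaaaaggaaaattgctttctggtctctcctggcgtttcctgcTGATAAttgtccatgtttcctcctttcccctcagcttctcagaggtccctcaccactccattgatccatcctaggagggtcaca
Prkcq (chr2:11172132-11172431, plus strand): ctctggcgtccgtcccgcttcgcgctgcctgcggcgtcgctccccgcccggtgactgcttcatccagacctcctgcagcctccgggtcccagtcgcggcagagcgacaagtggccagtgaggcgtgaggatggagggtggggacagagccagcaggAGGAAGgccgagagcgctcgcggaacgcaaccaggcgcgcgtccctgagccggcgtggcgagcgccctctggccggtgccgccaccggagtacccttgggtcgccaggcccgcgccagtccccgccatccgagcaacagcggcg
Gata2 (chr6:88193641-88193940, plus strand): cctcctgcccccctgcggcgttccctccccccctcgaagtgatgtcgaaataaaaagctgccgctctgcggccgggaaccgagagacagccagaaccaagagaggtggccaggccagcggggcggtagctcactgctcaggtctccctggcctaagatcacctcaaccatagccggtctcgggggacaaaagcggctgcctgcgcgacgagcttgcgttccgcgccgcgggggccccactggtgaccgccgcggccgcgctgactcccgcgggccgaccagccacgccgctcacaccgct
Uros (chr7:133709246-133709545, minus strand): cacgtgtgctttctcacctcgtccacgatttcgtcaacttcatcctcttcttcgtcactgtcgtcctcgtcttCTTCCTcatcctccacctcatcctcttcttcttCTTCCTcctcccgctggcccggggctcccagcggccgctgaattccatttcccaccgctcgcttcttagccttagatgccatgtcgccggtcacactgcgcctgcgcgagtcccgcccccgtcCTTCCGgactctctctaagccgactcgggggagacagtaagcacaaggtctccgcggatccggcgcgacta
Rhd (chr4:134864286-134864585, plus strand): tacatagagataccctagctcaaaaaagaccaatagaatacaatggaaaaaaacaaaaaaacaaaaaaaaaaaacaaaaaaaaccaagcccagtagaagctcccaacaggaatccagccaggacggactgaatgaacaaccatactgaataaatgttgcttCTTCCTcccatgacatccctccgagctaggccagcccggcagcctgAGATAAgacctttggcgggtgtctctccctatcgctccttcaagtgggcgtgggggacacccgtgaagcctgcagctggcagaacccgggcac
Bpgm (chr6:34476106-34476405, plus strand): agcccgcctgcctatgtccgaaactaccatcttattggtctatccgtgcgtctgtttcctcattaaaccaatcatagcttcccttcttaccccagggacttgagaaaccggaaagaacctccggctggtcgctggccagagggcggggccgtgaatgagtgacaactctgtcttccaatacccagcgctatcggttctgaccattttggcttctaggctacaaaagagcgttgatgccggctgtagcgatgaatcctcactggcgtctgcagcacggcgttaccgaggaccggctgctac
The first 3 genes rose and the last 3 fell. Mmrn1 held 1 GATA-type match 34 bases before its start, Rhd 1 GATA-type match 43 bases before its start and 1 ETS-type match, Prkcq 1 ETS-type match and Uros 3. The windows of Gata2 and Bpgm held neither set of letters. Among the 12411 tested genes with a promoter in the table, 11.3% held a GATA-type match and 51.4% an ETS-type match; the shares were 12.9% and 53.7% among rises, and 15.1% and 51.0% among falls. For 32 tested platelet genes the shares were 21.9% and 68.8%, and for 43 genes of the haem, membrane, iron and regulator lists of the red cell they were 32.6% and 37.2%. These shares describe the letters of the window and were not tested.

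Of 22 blood transcription factors tested, 6 rose and 4 fell. Over all tested genes 3.32% rose and 4.26% fell, the shares to set beside this and each list count over both stages below. Gata2, which keeps blood progenitors immature, was 7.70 and 7.32 in WT and 8.39 and 8.28 in ERG/GATA1s at E12.5, and 6.05 and 6.31 against 8.68 and 8.43 at E14.5 (arrays labelled female, then male). Its level was lower in WT at the later stage and not lower in ERG/GATA1s, and all 4 ERG/GATA1s arrays lay above all 4 WT arrays. The difference over both stages was 1.60 ± 0.16 (SE; adjusted p = 0.000203), 3.03-fold, and the call held. Runx1, a partner of ERG and GATA2, rose by 0.80 ± 0.13 (adjusted p = 0.00256) and held. Fli1 (0.47), the repressor Etv6 (0.63) and Spi1 (0.53), the myeloid factor PU.1, also rose, and leaving out single arrays lost the calls with 8, 2 and 12 of them.

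Runx1t1, a co-repressor, fell by 1.45 ± 0.19 (adjusted p = 0.000783) and held. It was 6.93 and 6.64 in WT against 6.79 and 6.32 at E12.5, where the groups overlapped, and 7.89 and 7.28 against 4.81 and 5.03 at E14.5, where they lay far apart. Ikzf1, a lymphoid and erythroid zinc finger factor, fell by 0.57 ± 0.10 and held. Lmo2, the bridging factor of GATA1 complexes, fell by 0.53 and Zfpm1, the GATA1 cofactor FOG1, by 0.46; these calls were lost without 1 and 9 of the arrays. The list median was 0.12. The rises numbered 2 without the male-labelled E12.5 WT array or the male-labelled E14.5 ERG/GATA1s array, and 3 without either E14.5 array labelled female of these genotypes; the falls numbered 2 without the male-labelled E14.5 ERG/GATA1s array. In the additive fit of the 8 arrays 1 factor rose and none fell, and the same counts were found without the 3 sex-opposed arrays.

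The genes of the design themselves differed little. Erg was 5.51 and 5.35 in WT and 6.01 and 5.90 in ERG/GATA1s at E12.5, and 5.41 and 5.53 against 5.80 and 5.66 at E14.5. The difference of 0.39 ± 0.10 passed (adjusted p = 0.0291) and was lost without the male-labelled E12.5 WT array, the female-labelled E14.5 WT array or either E14.5 ERG/GATA1s array. Whether the mouse probe set measures the transgene is not known. Gata1, whose probe set is not known to distinguish the forms, differed by -0.10 ± 0.12 (adjusted p = 0.674).

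**Figure D2:**
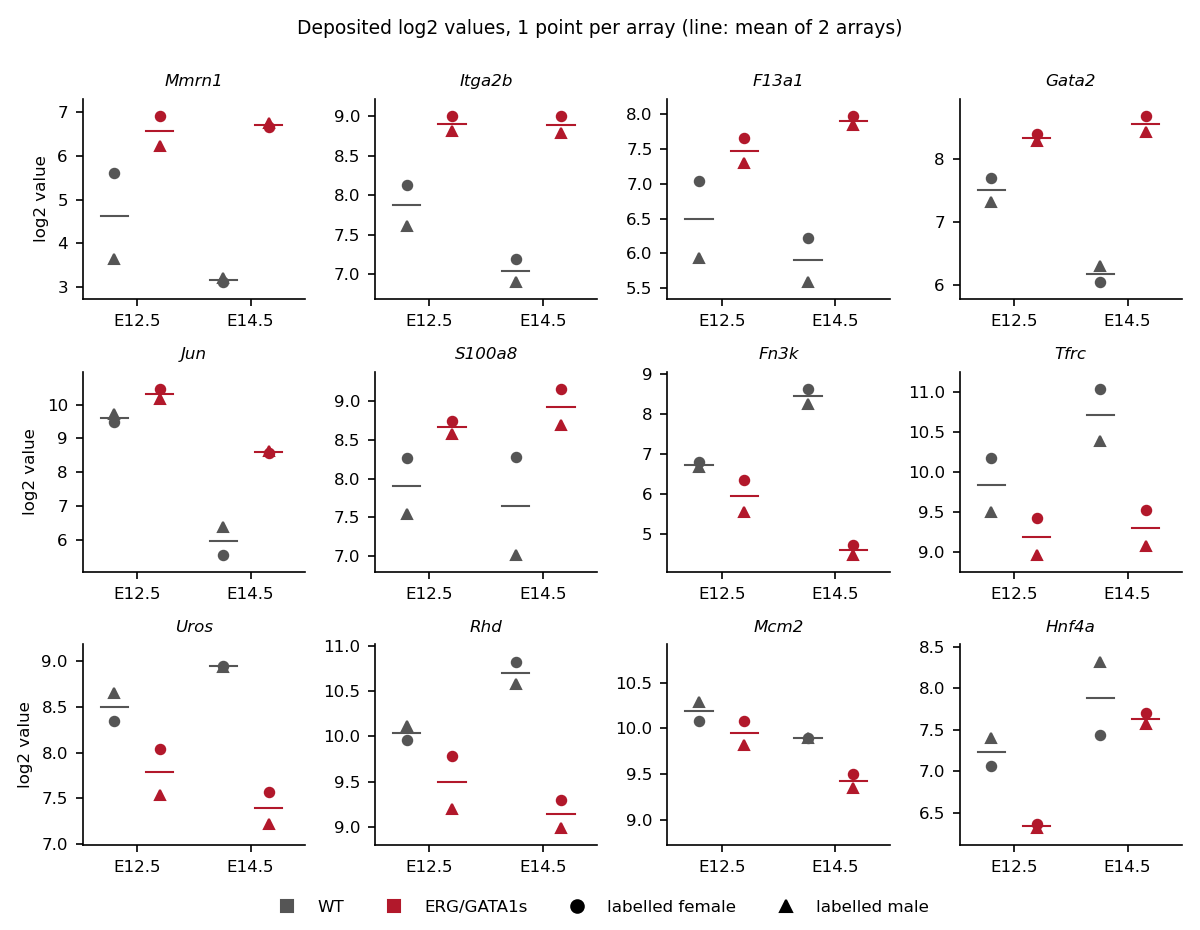
Deposited log2 values of 12 genes on the 8 arrays compared, by stage; grey is WT, red is ERG/GATA1s, circles are arrays labelled female, triangles are arrays labelled male and each line is the mean of 2 arrays. The first 6 genes, row by row, rose and the other 6 fell; at E14.5 the pairs stood apart for each gene but Hnf4a, whose ERG/GATA1s arrays (7.70 and 7.57) lay between the WT arrays (7.44 and 8.32).

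Platelet genes rose as a group. Of 43 tested members of 3 lists, 33 rose and 1 fell, and their median difference was 0.72 beside -0.01 for all genes. In a whole-liver suspension, more cells of a type and more RNA per cell cannot be told apart. At E12.5 the median was 0.55 and at E14.5 it was 1.12.

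Receptors of the platelet surface rose in 11 of 14 cases. Itga2b, the integrin chain that defines the lineage, was 8.13 and 7.61 in WT and 9.0 and 8.81 in ERG/GATA1s at E12.5, and 7.19 and 6.90 against 9.0 and 8.78 at E14.5. Every ERG/GATA1s array lay above every WT array, by 1.44 ± 0.15 on average (adjusted p = 0.000203), 2.71-fold. Its partner Itgb3 rose by 1.19 ± 0.16, Treml1, a receptor stored in granules, by 1.24 ± 0.13, and the tetraspanin Cd9 by 1.03 ± 0.13; all 3 calls held. Clec1b, F2rl2, F2rl3, Gp5 and Pear1 rose and held as well. Among the receptors without a call, P2ry12, a receptor for ADP, differed by -0.13, while Slamf1 (0.68) and Tbxa2r (0.51) were higher without passing. Gp9 and P2ry1 rose by 0.69 and 0.58, calls lost without 7 and 10 of the arrays.

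Granule proteins rose in 8 of 14 cases. Mmrn1, multimerin, which binds factor V in platelet granules, was 5.62 and 3.64 in WT and 6.91 and 6.23 in ERG/GATA1s at E12.5. The E14.5 values were 3.12 and 3.20 against 6.65 and 6.74. The WT signal was dim on 3 of 4 arrays, so the rise of 2.74 ± 0.33 (adjusted p = 0.000435), 6.67-fold, may understate the RNA ratio. F13a1, which cross-links fibrin, rose by 1.49 ± 0.21 and held, as did the adhesive protein Thbs1 (1.01 ± 0.16), the chemokine Pf4 (0.85 ± 0.15), the proteoglycan Srgn (0.64) and the protease Mmp9 (0.60). Ppbp, a platelet chemokine of the same gene cluster as Pf4, went the other way. It was 9.86 and 9.61 in WT against 9.23 and 8.77 at E12.5, and 11.13 and 11.30 against 10.70 and 10.60 at E14.5. The groups were apart at each stage, the fall was 0.65 ± 0.13 (adjusted p = 0.00691) and the call held.

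Signalling and skeletal proteins of platelets rose in 14 of 15 cases, and the remaining gene, Tbxas1, was 0.59 higher. Prkcq, a protein kinase C of platelets and T cells, was 7.47 and 6.88 in WT and 8.36 and 7.88 in ERG/GATA1s at E12.5, and 6.24 and 6.36 against 8.83 and 8.57 at E14.5. The rise was 1.67 ± 0.19 (adjusted p = 0.000271), 3.19-fold, with no overlap between the genotypes. Plek, a substrate of protein kinase C, rose by 1.24 ± 0.16, and Rasgrp2, which activates the GTPase that switches on platelet integrins, by 1.17 ± 0.14. Rab27b and Nbeal2, needed for granule release and formation, rose by 1.04 ± 0.12 and 0.84 ± 0.10. These 4 held. Tubb1, the tubulin of the platelet ring, rose by 0.59 ± 0.14 and was lost without 4 arrays. In the additive fit of the 8 arrays the 3 lists had 4, 3 and 7 calls, and without the 3 sex-opposed arrays 4, 1 and 6.

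Genes of red cell formation fell. Of 57 tested members of the haem, membrane, iron and regulator lists, 31 fell and 2 rose. The median was -0.53, with -0.31 at E12.5 and -0.80 at E14.5. The mean haem level at E12.5 was 10.04 and 10.24 in WT. It was 9.95 on the female-labelled ERG/GATA1s array and 9.60 on its partner. For regulators these 4 values were 8.79, 8.74, 8.80 and 8.49. The male-labelled E12.5 ERG array lay below all of them for haem (9.51) and regulators (8.26). For iron genes it did not lie below the male-labelled ERG/GATA1s array (7.91). All 12 genes of haem synthesis were lower in ERG/GATA1s, and 9 passed. Uros, an enzyme of the pathway's middle steps, was 8.35 and 8.65 in WT and 8.04 and 7.53 in ERG/GATA1s at E12.5, and 8.95 and 8.94 against 7.57 and 7.22 at E14.5. The 4 ERG/GATA1s arrays lay below the 4 WT arrays, by 1.13 ± 0.19 (adjusted p = 0.00347). Slc25a38, the mitochondrial glycine carrier, fell by 0.90 ± 0.14 and Slc25a37, the mitochondrial iron carrier, by 0.79 ± 0.14. These 3 held. Alas2, the first enzyme of the erythroid pathway, fell by 0.55 ± 0.13 over both stages, a call lost without 4 arrays, and its difference was near 0 at E12.5 (0.01) and -1.11 at E14.5. The haem calls numbered 5 and 4 without the female- and male-labelled E12.5 WT arrays, 4 without the female-labelled E14.5 WT array, 4 without the male-labelled E12.5 ERG/GATA1s array and 3 without the male-labelled E14.5 ERG/GATA1s array.

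The 17 tested genes of the red cell membrane and skeleton were all lower, and 10 passed. Rhd, of the Rhesus complex, was 9.96 and 10.11 in WT and 9.78 and 9.20 in ERG/GATA1s at E12.5, and 10.82 and 10.57 against 9.30 and 8.99 at E14.5. The genotypes did not overlap, and the fall of 1.05 ± 0.15 (adjusted p = 0.00159) held. Dmtn, which bundles actin under the membrane, fell by 1.02 ± 0.16, and Icam4, an adhesion molecule of erythroblasts, by 0.89 ± 0.15; both held. Cldn13 (1.11 ± 0.28 lower), the band 3 anion exchanger Slc4a1 and ankyrin Ank1 fell with calls lost without 4 to 6 arrays. The membrane calls numbered 16 without the female-labelled E12.5 ERG/GATA1s array, 5 without its partner, 6 without the male-labelled E12.5 WT array and 3 without the male-labelled E14.5 ERG/GATA1s array.

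Iron uptake followed the same direction. Tfrc, the transferrin receptor, was 10.18 and 9.50 in WT and 9.42 and 8.96 in ERG/GATA1s at E12.5, and 11.04 and 10.39 against 9.52 and 9.07 at E14.5. It fell by 1.03, a call lost without 4 arrays. Steap3, the ferrireductase, and Slc11a2, the iron transporter of the same endosomes, fell by 0.81 ± 0.10 and 0.95 ± 0.16 and held. Of the 11 genes, 4 fell and 1 rose; the falls numbered 2 without the male-labelled E12.5 ERG/GATA1s array, the male-labelled E14.5 ERG/GATA1s array or the female-labelled E14.5 WT array. The gene that rose was Hamp, the hormone hepcidin, which hepatocytes make. It was dim at E12.5 except on 1 WT array (3.94), and its E14.5 values were 3.53 and 4.79 in WT against 8.76 and 7.93, a rise over both stages of 1.99 ± 0.40 that held.

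Among regulators of red cell maturation 8 of 17 fell and 1 rose. Epor, the erythropoietin receptor, fell by 0.81 ± 0.16 and Klf1, the master activator of red cell genes, by 0.58 ± 0.10; both held. Bpgm, which makes the regulator of haemoglobin's oxygen affinity, and Xpo7, a nuclear exporter of maturing red cells, fell by 0.94 and 0.90 and held, although at E12.5 they were 0.24 and 0.35 higher. The gene that rose was Car1, a carbonic anhydrase of red cells and their precursors. It was 10.16 and 9.42 in WT and 10.42 and 10.26 in ERG/GATA1s at E12.5, and 8.41 and 8.64 against 11.36 and 11.34 at E14.5, a rise of 1.69 ± 0.18 (adjusted p = 0.000203). The falls of this list numbered 5 without the male-labelled E12.5 ERG/GATA1s array or the female-labelled E14.5 WT array, and 4 without the male-labelled E14.5 ERG/GATA1s array. Of the embryonic globins, Hba-x rose by 0.63 ± 0.12 (adjusted p = 0.00752) and held: it was 9.58 and 9.48 in WT against 10.56 and 10.83 at E14.5, and 12.13 to 12.33 on all 4 arrays at E12.5. Hbb-bh1 (-0.44) and Hbb-y (0.22), close copies within a cluster, did not pass. In the additive fit of the 8 arrays 1 haem gene, 1 membrane gene, 2 iron genes and 1 regulator fell. Without the 3 sex-opposed arrays nearly all of the 31 falls over both stages were lost, while some genes of each list still fell at E14.5 alone. That fit kept 1 ERG/GATA1s array at each stage, so a lost call there does not show equal levels.

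**Figure D3:**
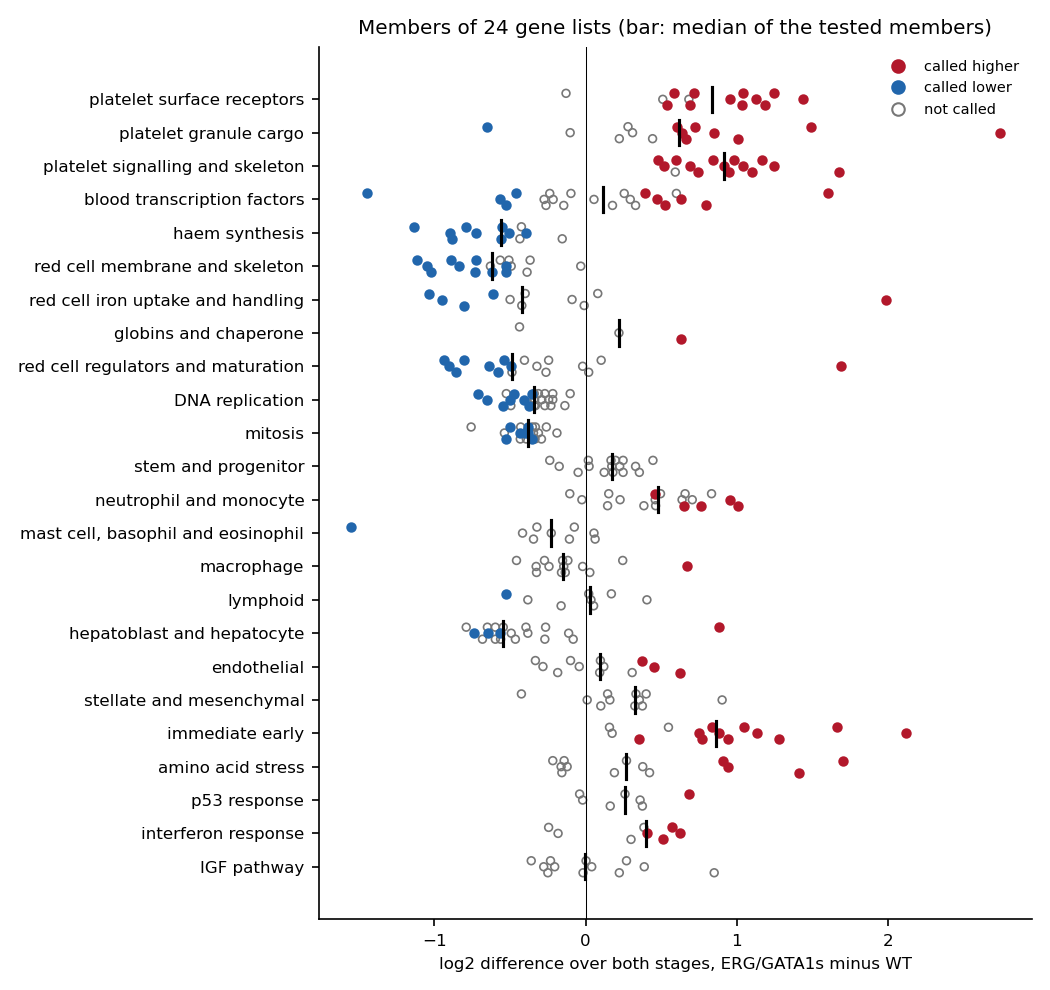
Each point is a tested member of 1 of 24 gene lists, placed by its log2 difference over both stages; filled red and blue points passed limma's test and open points did not, and the black bar is the list's median. The 3 platelet lists and the immediate early genes lie to the right (medians 0.62 to 0.92), and the haem, red cell membrane, regulator and hepatocyte lists to the left (-0.49 to -0.62).

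Genes of cell division had lower means over both stages, by small amounts. At E12.5 the mean replication level was 8.79 and 8.41 on the ERG/GATA1s arrays labelled female and male, against 8.82 and 8.87 in WT. The mitotic level was 8.96 and 8.53 against 9.18 and 8.98, so the female-labelled array lay near WT. At E14.5 the levels were 8.52 and 8.47 against 9.02 and 8.93, and 8.98 and 8.88 against 9.53 and 9.24. All 25 genes of DNA replication had lower means in ERG/GATA1s over both stages, with a median of -0.34 beside -0.01 for all genes, and 8 passed. Ccne1, the cyclin that opens S phase, was 9.79 and 10.03 in WT and 9.62 and 9.32 in ERG/GATA1s at E12.5, and 9.74 and 9.92 against 8.78 and 8.90 at E14.5. The genotypes did not overlap and the fall of 0.71 ± 0.13 (adjusted p = 0.00497) held. The replication licensing gene Mcm2 and the ribonucleotide reductase subunit Rrm2 fell by 0.35 and 0.50, calls lost without 13 and 6 arrays. All 20 mitotic genes were lower as well, with a median of -0.38, and 7 passed, among them Aurkb (0.43 ± 0.09 lower) and Mki67 (0.50 ± 0.14 lower), lost without 1 and 11 arrays. No gene of either list was called in the additive fit of the 8 arrays or without the 3 sex-opposed arrays.

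The counts of these lists moved with many arrays, as did the count over all tested genes, so the moves below are not particular to these lists. Without the female-labelled E12.5 ERG/GATA1s array 20 replication genes and 18 mitotic genes fell, and without its partner 2 and 1. Without the female- and male-labelled E14.5 ERG/GATA1s arrays the replication falls were 2 and 1 and the mitotic falls 1 and 0. Replication falls were 2 without the female-labelled WT array of either stage and 3 without the male-labelled E12.5 WT array. Mitotic falls were 1 without the female-labelled E12.5 WT array, 2 without that of E14.5, 11 without the male-labelled E14.5 WT array, and 3 without any E12.5 GATA1s or E14.5 ERG array, which enter through the shared spread.

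Most neutrophil and monocyte genes of the list were higher. Ly6g, a neutrophil surface gene outside the list, was 1.48 higher in ERG/GATA1s at E12.5 and 2.41 lower at E14.5. S100a8, a calcium-binding protein of neutrophils, was 8.26 and 7.55 in WT and 8.74 and 8.57 in ERG/GATA1s at E12.5, and 8.28 and 7.02 against 9.15 and 8.69 at E14.5. The WT arrays were wide apart from each other, yet each ERG/GATA1s array lay above them, by 1.01 ± 0.25 on average (adjusted p = 0.0244). Prtn3, a protease of early granules, rose by 0.76 ± 0.13 (adjusted p = 0.00374) and held. S100a9, Ms4a3 and Mpo rose by 0.96, 0.65 and 0.46, and these calls, with S100a8, were lost without 3 to 6 arrays. In all 5 of 18 rose, 16 were higher and the median was 0.48. The rises numbered 1 without the male-labelled E12.5 WT array, the male-labelled E12.5 ERG/GATA1s array or the female-labelled E14.5 ERG/GATA1s array, 3 without the E14.5 ERG/GATA1s or WT array labelled male, and 9 without the female-labelled E14.5 WT array. None passed in the additive fit of the 8 arrays or without the 3 sex-opposed arrays.

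Other white cell lists had few calls. Of 9 mast cell, basophil and eosinophil genes, Ear6, an eosinophil ribonuclease with close copies, fell: it was 8.59 and 8.54 in WT against 7.96 and 6.95 at E12.5, and 8.60 and 7.05 against 6.14 and 5.53 at E14.5. The fall of 1.55 ± 0.32 (adjusted p = 0.0101) was lost without either ERG/GATA1s array labelled male. Of 14 macrophage genes Hmox1, which breaks down haem, rose by 0.67, and of 8 lymphoid genes Igll1, the surrogate light chain of early B cells, fell by 0.53; these calls were lost without 3 and 2 arrays. The fall of Igll1 lay at E14.5, where it was -1.16. Its effect at E14.5 minus that at E12.5 was -1.27 and passed, so it was not lower at E12.5. None of 16 stem and progenitor genes passed, with a median of 0.18: Kit was 0.17 lower, Cd34 0.25 higher and Procr 0.35 higher.

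Immediate early genes, which encode transcription factors and feedback inhibitors switched on within minutes of a stimulus, rose in 11 of 14 cases, with a median of 0.86. Jun was 9.48 and 9.73 in WT and 10.46 and 10.17 in ERG/GATA1s at E12.5, and 5.56 and 6.39 against 8.56 and 8.62 at E14.5. Its level was lower at the later stage in both genotypes, more so in WT, and the rise was 1.66 ± 0.20 (adjusted p = 0.00037). Fosb, its partner, was 7.90 and 7.52 against 8.17 and 8.28 at E12.5, and 4.99 and 4.85 against 8.23 and 9.05 at E14.5. Fosb (2.12 ± 0.17), Atf3 (1.28 ± 0.19), the messenger RNA destabiliser Zfp36 (1.13 ± 0.17), Jund, Nr4a1 and Fos held. The heat shock gene Hspa1a was the member with the larger difference at E12.5 (1.28, against 0.82 at E14.5), and its call was lost without 8 arrays. The mean level of the list was 7.17 and 7.38 on the E12.5 WT arrays, 7.80 and 7.62 on the E12.5 ERG/GATA1s arrays, 5.46 and 5.83 on the E14.5 WT arrays and 7.05 and 6.98 on the E14.5 ERG/GATA1s arrays. The rises numbered 7 without the female-labelled E12.5 WT array or the female-labelled E14.5 ERG/GATA1s array, 2 in the additive fit of the 8 arrays and 3 without the 3 sex-opposed arrays.

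Part of the amino acid stress programme rose with them. Slc7a11, which imports cystine, was 5.97 and 5.30 in WT and 6.52 and 5.85 in ERG/GATA1s at E12.5, where the pairs overlapped, and 4.14 and 3.86 against 6.93 and 6.78 at E14.5. It rose by 1.70 ± 0.21 (adjusted p = 0.00046). Chac1, which degrades glutathione, rose by 1.41 ± 0.12 (adjusted p = 9.44e-05) and the pseudokinase Trib3 by 0.94 ± 0.16; these 3 held, and Ddit3 rose by 0.91 with a call lost without 2 arrays. The biosynthetic members Asns (-0.14), Psat1 (-0.16), Phgdh (-0.12) and Mthfd2 (-0.16) did not pass. In the list 4 of 13 rose, and the median was 0.27. Of the p53 list the pro-apoptotic Bbc3 rose by 0.68 ± 0.13 and held, 1 of 7. Of the interferon list 4 of 8 rose, with Ifi27 (0.57), Oasl2 (0.62) and Ifit1 (0.51) holding, while Rsad2 was 0.84 higher at E12.5 and fell by 1.21 at E14.5, a call lost without 11 arrays. In the additive fit of the 8 arrays 1 amino acid stress gene rose and none of the p53 and interferon lists was called; without the 3 sex-opposed arrays 3 amino acid stress genes rose and again none of the other lists. None of the 12 IGF pathway genes passed over both stages.

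Other cells of the liver differed too. The 19 hepatocyte markers were all lower in ERG/GATA1s at E12.5, with a median of -1.06, and had a median of 0.05 at E14.5 and of -0.55 over both stages. No marker passed at E12.5 or for the difference between stages. Hnf4a, the hepatocyte's own transcription factor, was 7.06 and 7.40 in WT and 6.37 and 6.32 in ERG/GATA1s at E12.5. Serpind1, Itih2 and Hnf4a passed over both stages as falls (0.74, 0.65 and 0.56) and Cps1, the urea cycle enzyme, as a rise (0.88 ± 0.18, held). The mean level of the list was 8.64 and 8.49 on the E12.5 WT arrays, 7.71 and 7.46 on the E12.5 ERG/GATA1s arrays, 9.36 and 10.10 on the E14.5 WT arrays and 10.04 and 9.72 on the E14.5 ERG/GATA1s arrays, and of its members Cps1 sat at 3.72 to 3.93 on all of the 8 arrays compared but the E14.5 ERG/GATA1s pair (6.12 and 4.96). Its 3 falls became 8 without either E12.5 ERG array, 10 without the female-labelled E12.5 ERG/GATA1s array and 11 without the female-labelled E14.5 WT array. They became 0 without the female-labelled E12.5 WT array, the male-labelled E12.5 ERG/GATA1s array or the male-labelled E14.5 ERG/GATA1s array, and 1 without any E12.5 GATA1s array, the male-labelled E14.5 WT array or the female-labelled E14.5 ERG/GATA1s array. Its part in the platelet and red cell results was not tested.

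Endothelial genes rose in 3 of 12 cases and had a median of 0.10. Pecam1, which platelets and endothelium share, rose by 0.62 ± 0.11 and held, while Tie1 (0.45) and Kdr (0.37) lost their calls without 3 and 15 arrays. Cdh5, the junction protein that defines endothelium, differed by 0.10 without passing. The 3 rises became 1 without the female-labelled WT array of either stage or the male-labelled E14.5 ERG/GATA1s array. In the additive fit of the 8 arrays no gene of the hepatocyte, endothelial, macrophage, lymphoid or mast cell lists was called, and none was without the 3 sex-opposed arrays. None of 11 stellate and mesenchymal genes passed. Their median was 0.42 at E12.5 and -0.01 at E14.5, and the list's mean level was 6.52 and 6.22 on the E12.5 ERG/GATA1s arrays against 6.05 and 6.02 in WT.

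**Figure D4:**
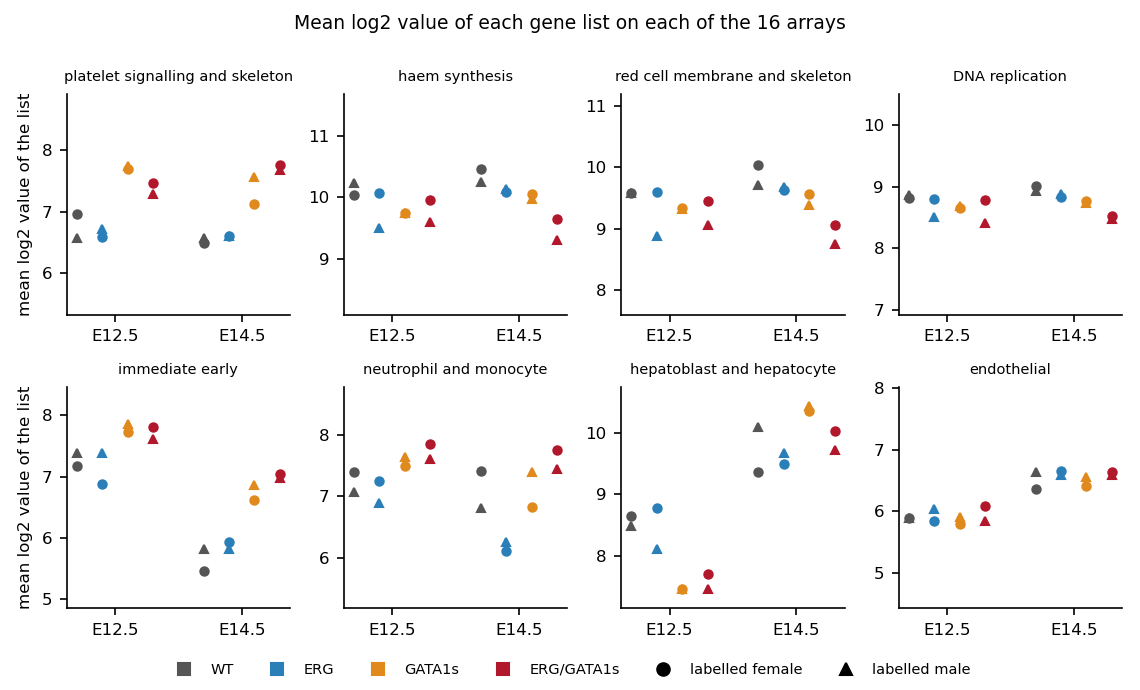
Mean log2 level of 8 gene lists on each of the 16 arrays, by stage and genotype (grey WT, blue ERG, orange GATA1s, red ERG/GATA1s; circles labelled female, triangles labelled male), with every panel spanning the same range. The ERG/GATA1s arrays are the lowest for haem synthesis at E14.5 (9.64 and 9.30), and for hepatocyte markers they lie with GATA1s below WT at E12.5 (7.71 and 7.46).

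Several of the largest single changes lay outside these lists. Among called genes whose ERG/GATA1s arrays all lay on 1 side of WT within each stage, the 15 largest rises ran from 1.59 to 3.09 over both stages; all 15 were larger at E14.5, passed there and held, and 9 passed in the additive fit of the 8 arrays. AI506816 led them, with 6.93 and 4.92 in WT and 8.38 and 7.85 in ERG/GATA1s at E12.5, and 3.74 and 3.22 against 7.50 and 7.44 at E14.5. Npy, a neuropeptide, was 7.07 and 5.80 against 7.51 and 7.90 at E12.5, and 4.84 and 5.04 against 8.76 and 8.68 at E14.5. Ccl3, a chemokine, was 9.40 and 9.08 against 10.33 and 9.82 at E12.5, and 5.14 and 5.24 against 8.85 and 8.95 at E14.5. In these 3 genes the WT level was lower at E14.5 than at E12.5, and the ERG/GATA1s level was lower by less or, for Npy, higher. The signalling inhibitor Rgs1 (1.73 ± 0.18), the myeloid receptor Lilr4b (1.72 ± 0.22), Ndrg2 (1.75 ± 0.24) and the actin-binding Cap2 (1.59 ± 0.24) followed. So did 2 small structural RNAs, Rny1 of the Ro particle (1.73 ± 0.26) and Rnu12 of the minor spliceosome (1.73 ± 0.28).

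Chosen the same way, the 15 largest falls ran from 1.36 to 2.31 lower, all were larger at E14.5 and passed there, 9 held and 7 passed in the additive fit of the 8 arrays. Fn3k led them and its relative Fn3krp came second; both remove sugars bound to proteins. Fn3k was 6.81 and 6.67 in WT and 6.37 and 5.55 in ERG/GATA1s at E12.5, and 8.63 and 8.26 against 4.73 and 4.49 at E14.5. Its level was higher at the later stage in WT and lower at the later stage in ERG/GATA1s, and the fall over both stages was 2.31 ± 0.33 (adjusted p = 0.00127), 4.95-fold. Fn3krp fell by 1.88 ± 0.29, Endod1 by 1.73 ± 0.20, the insulin-regulated glucose transporter Slc2a4 by 1.41 ± 0.17 and the unconventional myosin Myo1d by 1.39 ± 0.17. Sh3yl1, Btnl10, Snx22 and Mboat2 held as well. Tac2, a tachykinin (1.78 ± 0.38), the protease Ctse (1.52 ± 0.35), the lipase Mgll (1.52 ± 0.36), Pdia2 (1.51 ± 0.32) and Fhdc1 (1.39 ± 0.35) fell with calls lost without 2 to 5 arrays. Without the 3 sex-opposed arrays 12 of the 15 rises and 3 of the 15 falls passed.

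Whether the effect itself changed between stages was tested as the effect at E14.5 minus that at E12.5. The marker sex of the ERG/GATA1s arrays, and possibly the copies of the X-linked allele, changed with the stage. The difference was higher for 44 genes (0.28%) and lower for 21 (0.133%), and 50 of these 65 were among the calls over both stages. Nrip3, a nuclear receptor-interacting protein, differed by -0.17 at E12.5, where it was 4.64 and 4.80 in WT and 4.49 and 4.61 in ERG/GATA1s, and was 4.28 and 4.01 against 7.98 and 7.14 at E14.5. Cxcl10, an interferon-induced chemokine, was 6.40 and 6.76 against 6.71 and 6.08 at E12.5, and 5.12 and 6.14 against 9.17 and 8.70 at E14.5. Bpgm was 7.22 and 7.44 against 7.91 and 7.23, and then 8.86 and 7.94 against 6.26 and 6.30. Xpo7 was 9.25 and 8.71 against 9.55 and 9.11, and then 11.09 and 10.62 against 8.76 and 8.64. For both of these genes the WT arrays were higher at the later stage and the ERG/GATA1s arrays were lower. The count was 2 without the 3 sex-opposed arrays. It was 13 and 15 without the female- and male-labelled E12.5 WT arrays, 824 and 21 without the E12.5 ERG/GATA1s arrays, 34 and 487 without the E14.5 WT arrays, 15 and 36 with the E14.5 ERG/GATA1s pair left out in turn, 22 with 1 E12.5 GATA1s array left out and 43 with 1 E14.5 ERG array left out.

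What the transgene added to the GATA1s allele was read from ERG/GATA1s against GATA1s over both stages, 4 arrays against 4. Higher in ERG/GATA1s were 2 genes (0.0127%) and lower were 3 (0.0191%), with 1021 at an unadjusted p under 0.05. Nrip3 was 1.55 ± 0.18 higher (adjusted p = 0.00952): at E14.5 GATA1s had 4.17 and 3.94, against 7.98 and 7.14. The monocyte chemokine Ccl2 was 1.11 ± 0.15 higher, with 4.12 and 4.44 in GATA1s against 6.93 and 6.10 at E14.5. Prokr1, a receptor, was 1.04 ± 0.16 lower, and the bile salt exporter Abcb11 and the bile acid enzyme Akr1d1 were 0.81 ± 0.12 and 0.66 ± 0.08 lower; Akr1d1 was dim in ERG/GATA1s. Each of the 5 calls was lost without at least 2 arrays. The count was 29 without either E14.5 WT array, 18 without either E12.5 ERG array, 14 without the female-labelled E12.5 ERG/GATA1s array and 1 without its partner. It was 1 and 0 without the female- and male-labelled E12.5 GATA1s arrays, and 3 without any E12.5 WT, E14.5 GATA1s or E14.5 ERG/GATA1s array.

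The 95% intervals of this difference were wide, and a missed threshold does not show equal levels. Gata2 was 0.91 higher in ERG/GATA1s than in GATA1s (interval 0.56 to 1.25, adjusted p = 0.06), Fn3k was -1.38 (-2.09 to -0.68, adjusted p = 0.182) and Bpgm -0.94 (-1.33 to -0.56, adjusted p = 0.0774). The platelet chemokine Ppbp was -0.77 (-1.03 to -0.50, adjusted p = 0.0597). For Itga2b the interval ran from -0.06 to 0.59, for Mmrn1 from -1.04 to 0.39 and for Car1 from -0.45 to 0.30. The medians of this difference were -0.07 over the 43 platelet genes and -0.22 over the 57 red cell genes.

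**Figure D5:**
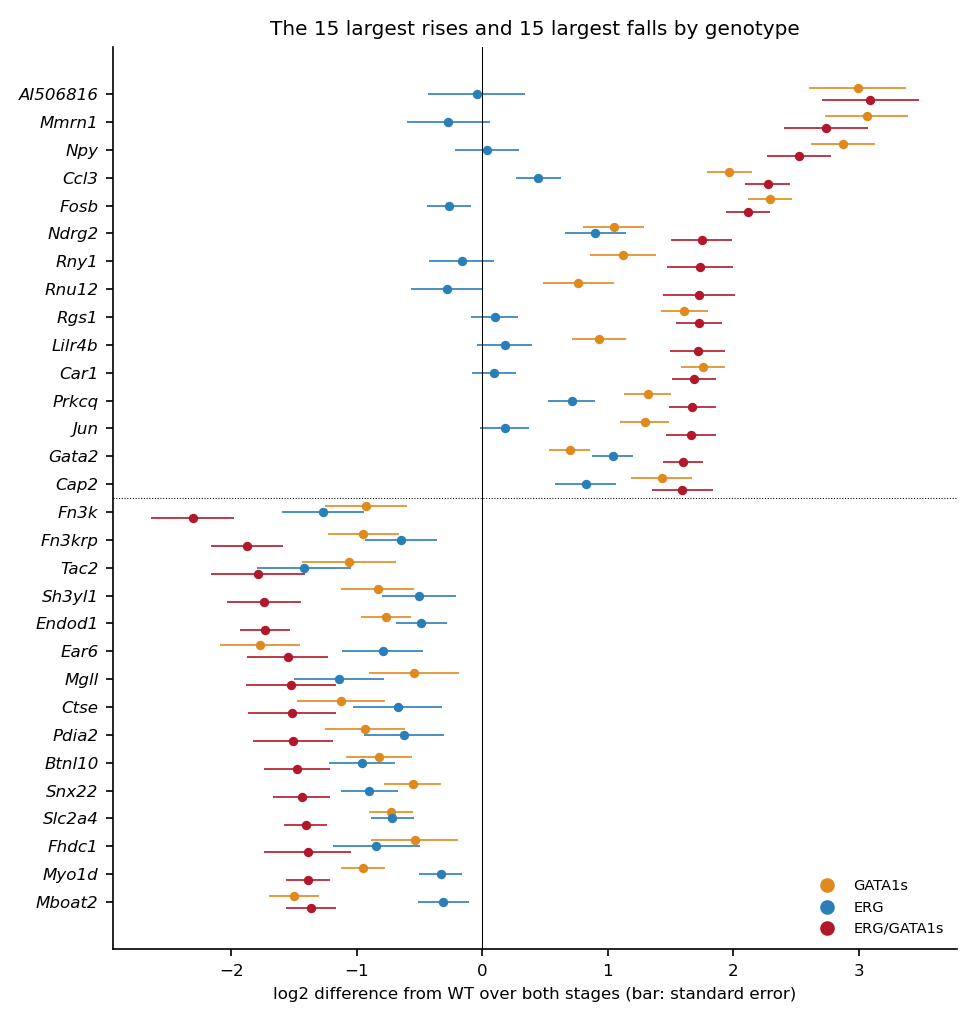
Log2 difference from WT over both stages, with its standard error, for the 15 largest rises and the 15 largest falls in ERG/GATA1s (red), beside the same genes in GATA1s (orange) and ERG (blue); the 3 comparisons share the 4 WT arrays. Medians over the rises were 1.73, 1.43 and 0.10 in that order, and over the falls -1.52, -0.93 and -0.72.

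Beside each other, the 3 genotypes gave these differences from the same WT arrays. Mmrn1 was 3.06 ± 0.33 higher in GATA1s, -0.27 ± 0.33 in ERG and 2.74 in ERG/GATA1s, and Car1 was 1.76, 0.09 and 1.69. Gata2 was 0.69 ± 0.16 in GATA1s, 1.04 ± 0.16 in ERG and 1.60 in ERG/GATA1s, and Prkcq 1.32, 0.71 and 1.67. Among the falls, Fn3k was -0.93 ± 0.33, -1.27 ± 0.33 and -2.31, and Uros -0.62, -0.59 and -1.13. Among the 15 largest rises the GATA1s difference passed for 14 genes and the ERG difference for 1, and ERG/GATA1s lay above both single alleles for 11. Among the 15 largest falls these counts were 4, 0 and, below both, 13. The genes were chosen as the largest differences in ERG/GATA1s, which favours that genotype lying beyond the others. Over the 57 red cell genes the medians were -0.28 in GATA1s, -0.21 in ERG and -0.53 in ERG/GATA1s, and over the 43 platelet genes 0.84, -0.10 and 0.72.

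A departure from the sum of the 2 single effects was tested in the same fit, and 1 gene passed as higher (0.00635%) and 1 as lower (0.00635%), with 563 at an unadjusted p under 0.05. Plac8, a small cysteine-rich protein of myeloid cells, differed from WT by 0.41 in GATA1s, -0.59 in ERG and 0.91 in ERG/GATA1s, 1.08 ± 0.15 above the sum (adjusted p = 0.041). Cmah, which makes a sialic acid, was 0.76, 1.44 and 0.61, which is 1.59 ± 0.19 below the sum (adjusted p = 0.0132). For Gata2 the sum of the single effects was 1.73 and the departure -0.13 ± 0.23, and for Fn3k the sum was -2.19 and the departure -0.11 ± 0.46. For the granule protease Prtn3 the departure was 1.24 ± 0.19 (adjusted p = 0.056). Over the 18 neutrophil and monocyte genes the median departure was 0.96, beside -0.015 for all genes. Of these genes 17 lay above 0, but none passed, and genes read on the same arrays are not independent. With the transgene alone the list averaged 6.11 and 6.25 at E14.5, below the WT means of 7.41 and 6.82. Embryos with both alleles averaged 7.76 and 7.45, and those with GATA1s alone 6.83 and 7.40. At E12.5 the list averaged 7.26 and 6.89 with the transgene alone, and 7.40 and 7.07 in WT. It was 7.86 and 7.61 with both alleles and 7.50 and 7.63 with GATA1s alone. The departure is computed by subtracting the transgene's own difference, so a low level with the transgene alone raises it. What lies behind the departure was not tested. The calls for Plac8 and Cmah were lost without 12 and 5 arrays. The count was 18 without the male-labelled E14.5 WT array, 6 without the male-labelled E14.5 GATA1s array and 5 without the male-labelled E12.5 ERG/GATA1s array. It was 0 without any E12.5 GATA1s or E14.5 ERG/GATA1s array or the female-labelled E14.5 ERG array, and 1 without any E12.5 WT array, the female-labelled E14.5 WT array or the male-labelled ERG array of either stage.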

How the data were processed

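Total RNA of fetal liver cell suspensions was hybridised to 16 arrays, 2 in each of 8 groups. What the authors deposited is a table of log2 expression values by probe set; RMA produced it, per the submitters' processing notes, and the sources used here give no version or annotation build. Of 28270 probe sets 21780 had 1 gene symbol, 1617 several and 4873 none. Each symbol was represented by its brightest probe set and kept if above 3.74, the 30th percentile, on at least 2 arrays, which left 15742 genes. A single limma model (3.58.1, under R 4.3.3) took in the 16 arrays, with 1 mean per stage and genotype (8 residual degrees of freedom), eBayes and two-sided tests adjusted by Benjamini-Hochberg over all genes at 0.05. Stage is thus a block. Labelled sex was left out because markers oppose it on 3 arrays. The fits were checked on simulated data with independent noise for each gene and no array-wide shift. That check cannot show how an array that stands apart moves the counts.

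The 25 gene lists and the comparison were chosen with earlier results of these data known. Genes named are the 15 largest rises and falls on 1 side of WT within each stage, up to 4 members of each list by adjusted p, the 5 largest per direction for the other contrasts, and Erg, Gata1, Gata2 and sex markers; further list members were named after their values were seen, to illustrate counts. Alternatives were no filter or a stricter one, quantile normalization, centring, labelled sex or Y-linked signal as a term, fewer arrays, arrayWeights, trend and robust eBayes, all probe sets and leaving out arrays.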

Additional observations from a re-analysis of the deposited data

Results flagged for a closer look

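The effect of ERG/GATA1s differed between the stages for 65 genes by limma's test of the difference itself, 2 arrays against 2 at each stage, and the 5 largest in each direction are given here as the effect at E14.5 minus that at E12.5. Both ERG/GATA1s arrays of a stage share a sex by markers. Sex, and any difference in copies of the X-linked allele, cannot be told apart from stage.

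The difference was 4.40 for Hamp, 3.58 for Nrip3, 3.49 for Cxcl10, 3.30 for Igfbp1, a binding protein of insulin-like growth factors, and 3.20 for Fosb. It was -3.89 for Ly6g, a neutrophil surface protein of a family with close copies, -2.62 for Snx22, -2.50 for Xpo7, -2.44 for Runx1t1 and -2.36 for Bpgm. Ly6g turned over: it was 1.48 higher in ERG/GATA1s than in WT at E12.5 and 2.41 lower at E14.5. Igfbp1 was 0.80 lower at E12.5 and 2.50 higher at E14.5. The calls for Nrip3, Cxcl10, Fosb, Ly6g and Xpo7 held without each of the 16 arrays, and those for Bpgm, Runx1t1, Hamp, Igfbp1 and Snx22 were lost without 2 to 8 of them. With the 3 sex-opposed arrays left out, Fosb alone of the 10 passed.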

How the results depend on the processing

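The number of arrays, 2 per group, limits the precision. Over both stages the 1193 calls became 512 with only the groups compared, 128 with the 8 arrays in an additive fit, 261 with arrayWeights and 112 without the 3 sex-opposed arrays, and 522 to 3940 without single arrays. At E12.5 the 1 call became 0 with no filter, quantile normalization, centring, the Y-linked term, arrayWeights or the 3 arrays out, 19 with only the groups compared and 0 to 3442 without single arrays. At E14.5 the 1111 calls became 704 with the Y-linked term, 267 with only the groups compared, 345 without the 3 arrays and 433 to 1627 without single arrays. For the stage difference the 65 calls became 33 with no filter, 106 with labelled sex, 27 with the Y-linked term, 22 with only the groups compared, 0 with arrayWeights, 2 without the 3 arrays and 13 to 824 without single arrays. Against GATA1s the 5 calls became 3 with no filter or with centring, 1 with a stricter filter or without the 3 arrays, 17 with quantile normalization, 18 with labelled sex, 38 with only the groups compared, 2 with arrayWeights, 12 with trend and robust and 0 to 29 without single arrays. The 2 departures from the sum became 1 with no filter, centring or the Y-linked term, 5 with trend and robust, 0 without the 3 arrays and 0 to 18 without single arrays. Fewer samples enter where arrays are left out; for the other settings the cause was not tested.

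Of 3717 values of named genes under an alternative, 3331 kept their direction and side of the threshold, 357 lost the threshold, 23 gained it and 6 turned direction, all of them differences from WT over both stages that were not called. Akr1d1 was -0.02 with centring and Uty -0.041 with the Y-linked term. Leaving out single arrays gave -0.07 to 1.94 for Eif2s3y, -0.04 to 1.005 for Kdm5d, -0.14 to 1.54 for Uty and -3.76 to 0.03 for Xist, with the turned sign when the female-labelled E14.5 WT array was out.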
